A study of Mus musculus with 16 samples.

Results

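Described here are 10 genes of the circuit by which the hypothalamus senses energy stores and sets appetite: the peptide genes Agrp, Npy, Pomc and Cartpt, and the receptor genes Lepr, Mc3r, Mc4r, Ghsr, Npy1r and Npy2r. They were found by gene name on the array, where 14 probes carry these names, and 1 probe was used for each gene among the 24363 genes tested. In the arcuate nucleus, which lies at the base of the hypothalamus beside the third ventricle, one group of neurons makes AgRP and NPY and drives feeding. A neighbouring group makes POMC, the precursor of alpha-MSH, and many of its cells also make CART, and these restrain feeding. Leptin from fat acts on both groups through its receptor, ghrelin from the stomach acts mainly on the AgRP and NPY neurons, and alpha-MSH and AgRP compete at the melanocortin receptors on the cells downstream.

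Total RNA from the hypothalamus of 16 mice was hybridised to 1-colour Agilent arrays, 1 animal per array, with 8 control mice and 8 KO chimeras. As KO chimeras served C57BL/6J mice, lethally irradiated with 950 Rad. By 1 injection behind the eye they received whole bone marrow from Adrb1tm1BkkAdrb2tm1Bkk/J mice, which lack the beta-1 and beta-2 adrenergic receptors, and they recovered for 2 to 3 months. The labels give a ratio of 1 to 4 of knockout to C57BL/6J without saying what it counts. They repeat this treatment and the irradiated C57BL/6J strain for all 16 mice, and only the KO chimeras have a marrow donor strain, so what the control mice received is not settled. The host keeps its own brain cells, so the deletion is carried by cells that come from the marrow. The age, feeding state and time of day of the animals are not given in the sources used here.

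Every value is log2 of the background-subtracted signal relative to that array's 75th percentile, so a difference of 1 is a factor of 2 and levels of different genes, read by different probes, are not comparable. Of the 59305 non-control spots of each array, 27276 to 43248 were well above background. Of 16 marker genes of the hypothalamus 15 were tested, and 14 of these were above background on every array. Marker lists of neighbouring tissue differed between animals and groups. The summed level of 14 thalamus markers, as the mean of log2 values centred per gene, ran from -0.88 to 1.32 in control mice and from -1.34 to 0.30 in KO chimeras, with a median log2 difference of -0.72 and 2 genes lower by the test. That of 13 oligodendrocyte markers ran from -0.11 to 0.48 and from -0.33 to 0.05, with 5 genes lower. Of all 24363 genes tested, 683 were lower by the same test. In a whole-hypothalamus sample, fewer cells of a type and less RNA per cell cannot be told apart.

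The sequences below show what the array read for 3 of the peptides: stretches of the precursor's coding RNA, given in the sense direction, 5′ to 3′. Capitals mark the codons for the Gly-Lys-Arg signal at which mature NPY is cut and amidated, the Lys-Arg pair before mature CART, and the stop codon of Pomc, which follows the end of beta-endorphin.
Npy: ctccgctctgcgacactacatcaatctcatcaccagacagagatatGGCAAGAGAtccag
Cartpt: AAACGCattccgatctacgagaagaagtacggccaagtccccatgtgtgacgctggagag
Pomc: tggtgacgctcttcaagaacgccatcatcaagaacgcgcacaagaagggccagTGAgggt
The files place the Npy probe on the plus strand of mm9 at chr6:49773743-49777505 and the Cartpt probe on the minus strand at chr13:100668967-100669956. Each of these 60-base probes covers a far longer stretch of genome (3763 and 990 bases), so each spans an intron and reads spliced RNA. The Pomc probe covers 60 unbroken bases on the plus strand at chr12:3960413-3960472. The probe for Agrp, whose product blocks the melanocortin receptors, lies on the minus strand at chr8:108090600-108090659. A signal from these probes counts precursor RNA and says nothing of how much peptide was cut from it.

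None of the 10 genes passed the test between the groups (limma, adjusted p under 0.05), where 3.83% of all genes tested did (933 of 24363, 250 higher and 683 lower in KO chimeras). At an unadjusted p under 0.05 there were 3 of the 10 (Pomc, Cartpt and Ghsr, all with higher means in KO chimeras), a share of 30%, beside 20.7% of all genes. Testing the difference in means against all 12870 ways to divide the mice (exact permutation) also called 0 of the 10 and had the same count of 3 at an unadjusted p under 0.05. The log2 difference was above 0 for 7 genes and below 0 for 3, with a median of 0.13, beside a median over all genes of -0.000342. With the percentile taken over probes above background on all arrays, all genes shifted up by 0.06, the calls over all genes turned to 455 higher and 266 lower, Ghsr passed, and 9 of the 10 differences were above 0. With median scaling all genes shifted by -0.13, the calls over all genes were 178 higher and 3990 lower, and 5 of the 10 differences were above 0 and 5 below. Then 0 of the 10 had an unadjusted p under 0.05 in limma, beside 33.1% of all genes, so the larger share among the 10 was not kept under that scaling.

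**Figure D1:**
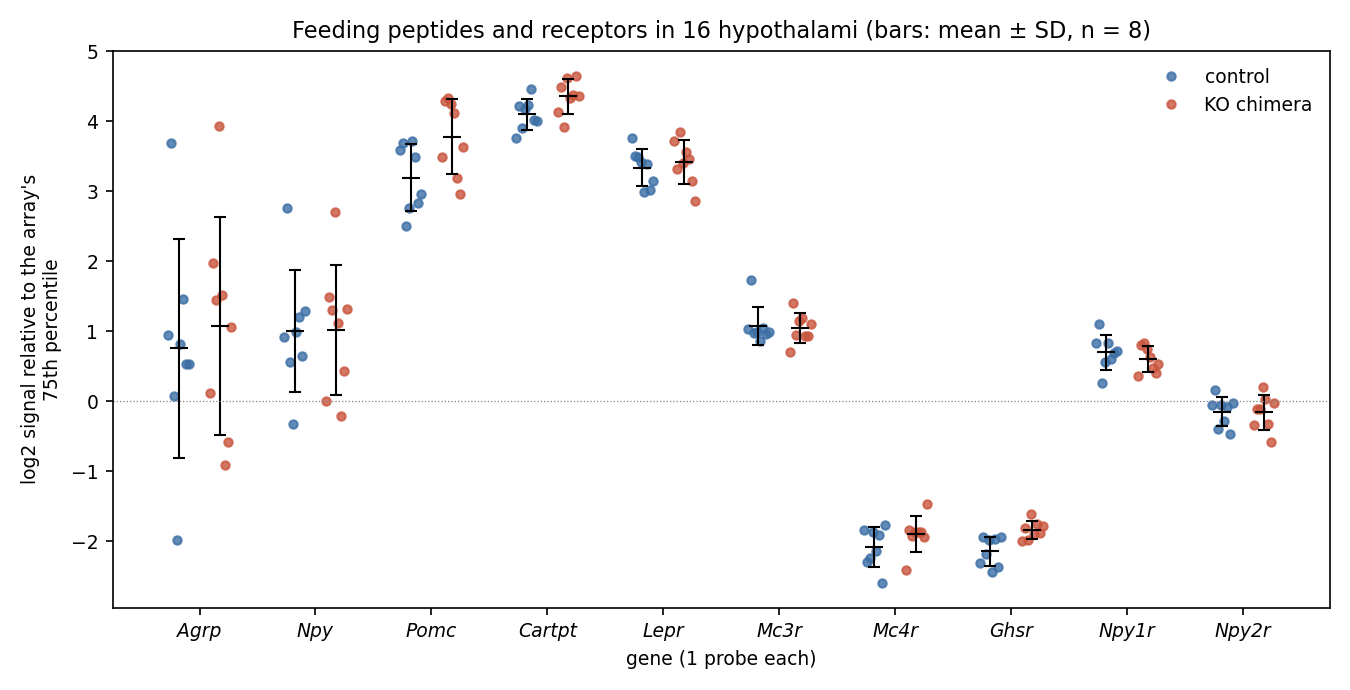
Scaled log2 signal (vertical axis, 0 at the array's 75th percentile) for the 10 genes (horizontal axis), with 1 point per mouse, control mice in blue and KO chimeras in red, and black bars for the mean ± SD of 8 mice. The groups overlap for every gene; Agrp and Npy spread far more than the rest, with control replicate 2 and KO chimera replicate 4 at the top for both. Heights of different genes come from different probes and are not comparable.

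Agrp, the feeding peptide that antagonises melanocortin receptors, ran from -1.98 through a median of 0.68 to 3.68 in control mice and from -0.91 through 1.26 to 3.93 in KO chimeras. The lowest and one of the highest animals were both controls (replicates 4 and 2), and the groups overlapped almost fully. The means were 0.76 ± 1.57 and 1.07 ± 1.55 (SD, n = 8 each), a log2 difference of 0.31 (SE 0.72, 95% interval -1.20 to 1.83, limma adjusted p = 0.838). The interval is wide enough to hold more than a doubling in either direction. The sign itself rested on single animals and on the scan day: the log2 difference was -0.09 without KO chimera replicate 4, -0.08 without control replicate 4, -0.12 within scan day 1 and 0.75 within scan day 2.

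Npy, which is released by the same neurons and stimulates feeding through Y receptors, ran from -0.32 through 0.95 to 2.76 in control mice and from -0.21 through 1.21 to 2.70 in KO chimeras. The animals at the extremes were those at the extremes of Agrp. The means were 1.00 ± 0.87 and 1.02 ± 0.93 (SD, n = 8 each), a log2 difference of 0.02 (SE 0.42, 95% interval -0.86 to 0.89, limma adjusted p = 0.988). Within scan day 1 the difference was -0.37 and within scan day 2 it was 0.40, neither past the test.

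Pomc, the precursor of alpha-MSH and beta-endorphin, ran from 2.50 through 3.22 to 3.71 in control mice and from 2.95 through 3.87 to 4.33 in KO chimeras. Of the KO chimeras, 4 (replicates 2, 3, 4 and 5) lay above every control mouse, and the other 4 lay within the control range. The means were 3.19 ± 0.48 and 3.78 ± 0.54 (SD, n = 8 each), a log2 difference of 0.59 (SE 0.24, 95% interval 0.09 to 1.09, limma adjusted p = 0.168). This was the widest gap between group means among the 10 genes, and it missed the threshold for a test across all genes. It was 0.31 within scan day 1 and 0.87 within scan day 2, 0.47 with the slide as a block, and 0.49 to 0.71 with single animals left out. Pomc is also made in the pituitary, which hangs directly below this tissue. Of 13 pituitary markers only 6 passed the filter, and Gh and Prl, the leading hormones of that gland, were above background on 10 and 8 of the 16 arrays. The pituitary score ran from -0.90 to 1.62 in control mice and from -1.14 to 1.05 in KO chimeras, and its part in the Pomc values was not tested.

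Cartpt, whose peptide reduces feeding and which is also made in several other hypothalamic nuclei, ran from 3.77 through 4.10 to 4.46 in control mice and from 3.91 through 4.36 to 4.64 in KO chimeras. Here 3 KO chimeras (replicates 2, 4 and 7) lay above every control mouse and 2 control mice lay below every KO chimera. The log2 difference between the means, 4.10 ± 0.22 and 4.35 ± 0.25 (SD, n = 8 each), was 0.26 (SE 0.11, 95% interval 0.02 to 0.50, limma adjusted p = 0.201). It was 0.25 within scan day 1 and 0.27 within scan day 2, but 0.13 with median scaling (adjusted p = 0.468).

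Ghsr, the ghrelin receptor, came nearest to the threshold. Its signal ran from -2.45 through -2.08 to -1.94 in control mice and from -1.996 through -1.85 to -1.61 in KO chimeras. The groups overlapped only in a narrow zone at the top of the control range, and 6 KO chimeras lay above every control mouse. The means were -2.14 ± 0.21 and -1.84 ± 0.13 (SD, n = 8 each), a log2 difference of 0.31 (SE 0.09, 95% interval 0.12 to 0.49, limma adjusted p = 0.0587). The difference was 0.21 within scan day 1 and 0.40 within scan day 2, and 0.27 with the slide as a block (adjusted p = 0.116). Array weights lowered the adjusted p to 0.0291, and leaving out control replicate 8 lowered it to 0.0464. Median scaling, under which all genes shifted by -0.13, gave a difference of 0.18 (adjusted p = 0.156). The difference was also smaller with quantile scaling (0.222, adjusted p = 0.18) and with normexp background correction (0.184, adjusted p = 0.317). In the deposited table the Ghsr difference was 0.218 (adjusted p = 0.196). The percentile over probes above background on all arrays raised it to 0.368 (adjusted p = 0.0432).

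Lepr, the leptin receptor, is the one gene here with probes for different splice forms, which differ in their ability to signal. The brightest probe, at chr4:101452666-101452725 (mm9, plus strand), carries the accession of transcript variant 2. It ran from 2.98 through 3.40 to 3.76 in control mice and from 2.85 through 3.43 to 3.85 in KO chimeras, with a log2 difference of 0.07 (SE 0.14, 95% interval -0.22 to 0.37, limma adjusted p = 0.798). A second probe with the same accession, at chr4:101464615-101464674, ran from -4.63 to -3.25 and from -4.20 to -2.62. Its log2 difference was 0.48 (SE 0.22, limma adjusted p over all probes = 0.242). The probe for variant 1, the long form that signals through Jak2 and Stat3, was above background on 1 control array and 5 KO chimera arrays, with means of -5.28 ± 0.47 and -4.77 ± 0.47 (SD, n = 8 each). It did not pass the filter of 8 arrays and was not tested. The probe for variant 3 was above background on 0 arrays. Across the 16 mice the brightest probe had r = -0.18 with the second (rho = -0.16, permutation p = 0.504, 0.588 adjusted over 7 probe pairs, r = -0.07 without the 2 farthest mice). The mean of the probes that passed the filter gave a log2 difference of 0.28 (limma adjusted p = 0.196).

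The melanocortin receptors are read by 1 probe each. Mc3r, which sits partly on the arcuate neurons themselves, ran from 0.86 through 0.99 to 1.73 in control mice and from 0.71 through 1.03 to 1.41 in KO chimeras. All control mice but one lay between 0.86 and 1.05, and the exception was control replicate 2 at 1.73, the control mouse that also had the highest Agrp and Npy. The log2 difference between the groups was -0.03 (SE 0.12, 95% interval -0.27 to 0.22, limma adjusted p = 0.921), and 0.07 without control replicate 2. Mc4r, the main receptor through which alpha-MSH limits food intake, ran from -2.59 through -2.02 to -1.76 and from -2.41 through -1.87 to -1.46. Its log2 difference was 0.18 (SE 0.13, 95% interval -0.09 to 0.46, limma adjusted p = 0.444), and 0.06 with median scaling, 0.10 with quantile scaling and 0.09 in the deposited table.

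Of the Y receptors for NPY, Npy1r, a receptor of the target cells, ran from 0.26 through 0.70 to 1.11 in control mice and from 0.35 through 0.58 to 0.83 in KO chimeras. Its log2 difference was -0.10 (SE 0.11, 95% interval -0.32 to 0.12, limma adjusted p = 0.625), with -0.28 within scan day 1 and 0.08 within scan day 2. Npy2r, by which NPY also restrains its own release, has 2 probes about a kilobase apart that gave different answers. The brighter one, at chr3:82342675-82342734 on the minus strand, had means of -0.15 ± 0.21 and -0.16 ± 0.25 (SD, n = 8 each) and a log2 difference of -0.01 (SE 0.11, limma adjusted p = 0.971). The dimmer one, at chr3:82343900-82343959, ran from -2.97 through -2.72 to -2.16 in control mice and from -2.79 through -2.22 to -1.98 in KO chimeras, a log2 difference of 0.40 (SE 0.12, limma adjusted p over all probes = 0.0847). The correlation between these probes over the 16 mice was r = 0.39 (rho = 0.36, permutation p = 0.134, adjusted 0.313, r = 0.23 without the 2 farthest mice), and the mean of both, 0.20, turns the sign of the Npy2r difference.

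**Figure D2:**
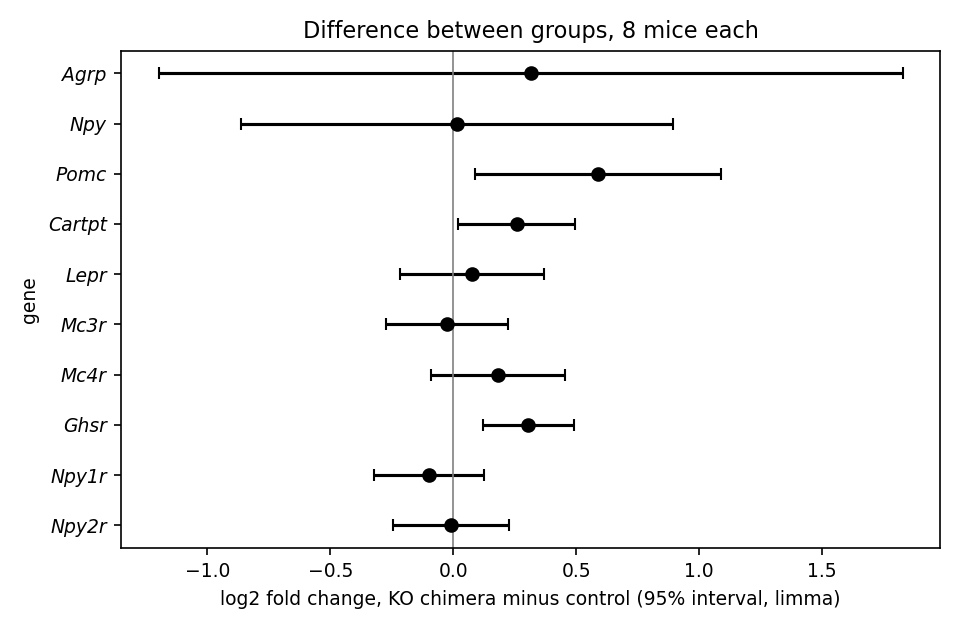
Log2 fold change of each gene (horizontal axis, KO chimera minus control, 8 mice each) with its 95% interval from limma. The intervals of Pomc, Cartpt and Ghsr lie above 0 before adjustment for the 24363 genes tested, those of Agrp and Npy are the widest, and none of the 10 passed the adjusted test.

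The width of the Agrp and Npy intervals comes from spread between animals of the same group. The SD within groups was 1.56 for Agrp, against a median of 0.20 over all genes, which placed it at rank 8 of 24363 genes and at rank 4 of the 11072 genes with a mean above the array's 75th percentile. From the lowest to the highest mouse Agrp covered a 60.1-fold range. Npy had an SD of 0.90 (rank 136 of 24363) and an 8.47-fold range. Pomc had an SD of 0.51 and a 3.56-fold range, higher than 91.7% of genes. The other 7 genes had SDs of 0.17 to 0.29, with ranges of 1.72-fold to 2.18-fold, and lay in the middle of the distribution over all genes.

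Agrp and Npy varied together from mouse to mouse. Over the 16 mice the Pearson r was 0.96 and the Spearman rho 0.91 (permutation p = 1e-05, the smallest that 100000 resamples can give, 6e-05 adjusted over the 6 peptide pairs). Within control mice r was 0.97 and within KO chimeras 0.96 (exact permutation p = 0.00193 and 0.00139). It was 0.94 within scan day 1, 0.99 within scan day 2, and 0.94 to 0.97 with single mice left out. With slide means subtracted r was 0.95, where KO chimera replicate 4, alone on its slide, lost its distance from the other mice. Without the 2 mice farthest from the median of Agrp (KO chimera replicate 4 and control replicate 4) it was 0.94. A step of 1 log2 unit in Agrp went with a step of 0.55 in Npy.

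**Figure D3:**
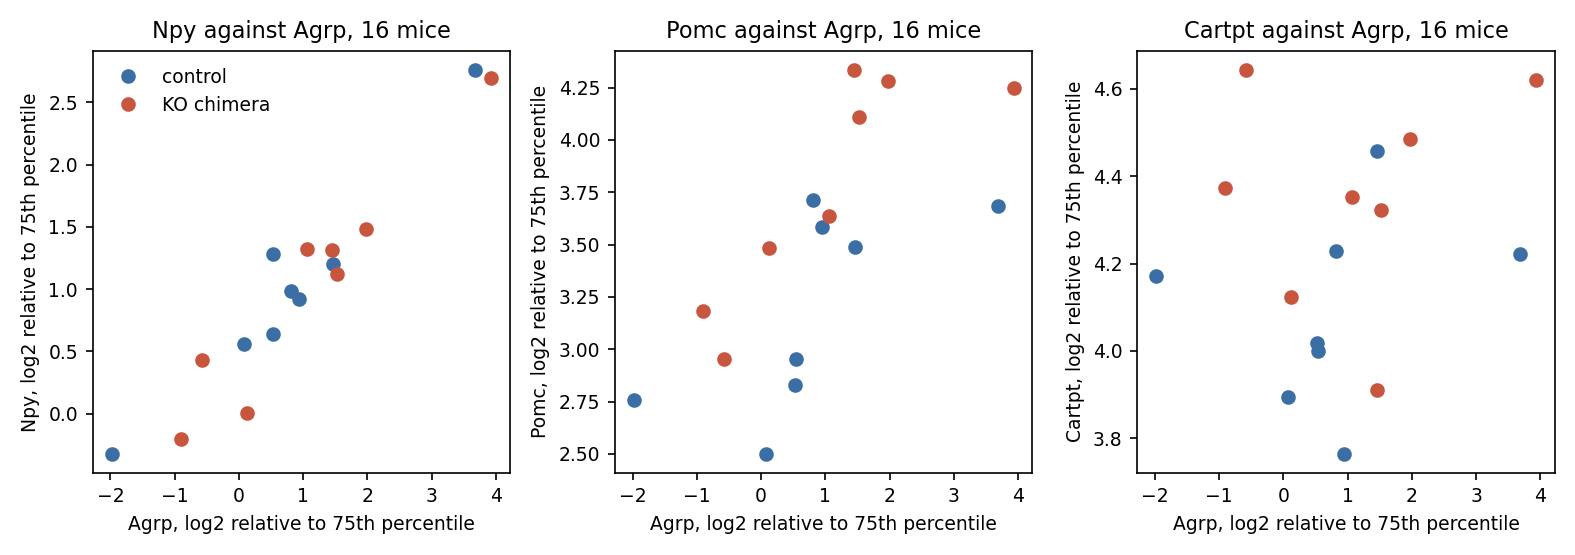
Log2 signal of Npy, Pomc and Cartpt (vertical axes) against that of Agrp (horizontal axes), all relative to the array's 75th percentile, with 1 point per mouse, control mice in blue and KO chimeras in red. Npy follows Agrp closely in both groups (r = 0.96 over 16 mice), Pomc follows it with more scatter (r = 0.70), and Cartpt shows little relation (r = 0.21).

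Pomc, although its peptides act against AgRP, varied in the same direction. For Agrp and Pomc r was 0.70 and rho 0.81 (permutation p = 0.002, adjusted 0.006), with r of 0.67 in control mice, 0.85 in KO chimeras, 0.73 and 0.71 within scan days 1 and 2, and 0.60 without the 2 mice farthest from the median (adjusted permutation p = 0.0519). For Npy and Pomc r was 0.60 and rho 0.71 (permutation p = 0.0125, adjusted 0.025), with 0.63 and 0.76 in the groups and 0.55 and 0.68 in the days. The latter pair rests in part on single mice, since r was 0.52 without KO chimera replicate 4 (adjusted p = 0.0871) and 0.54 without control replicate 4 (adjusted p = 0.0748). Cartpt did not vary detectably with the other peptides: r was 0.21 with Agrp, 0.22 with Npy and 0.28 with Pomc (adjusted permutation p = 0.43 for each). All such correlations are between values of the same arrays, which share their scaling, and they were chosen for description with earlier results of these data known.

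Among 24 pairs of a peptide with a receptor, 7 passed the adjusted permutation test of r. Agrp varied with Mc3r (r = 0.67, rho = 0.75), Npy1r (r = 0.65, rho = 0.65) and Npy2r (r = 0.65, rho = 0.66), each with an adjusted permutation p of 0.0223. Npy varied with the same receptors, with r of 0.73, 0.70 and 0.70 and rho of 0.72, 0.66 and 0.65 (adjusted permutation p = 0.021 each). Npy2r was read here by its brighter probe only, which had r = 0.39 with the dimmer probe over the 16 mice. The dimmer probe was not tested against the peptides. Cartpt varied with Ghsr (r = 0.66, rho = 0.72, adjusted permutation p = 0.0223). Both genes had higher means in KO chimeras, and after group means were subtracted their r was 0.49. The Agrp and Npy pairs above then had 0.65 to 0.73. Cartpt with Ghsr had r = 0.38 and rho = 0.14 in control mice, and 0.70 and 0.67 in KO chimeras. Without the 2 mice farthest from the median of the peptide the Agrp values were 0.83, 0.78 and 0.79, the Npy values 0.58, 0.60 and 0.47, and the Cartpt value 0.61. Within groups of 8 none of the 7 pairs passed after adjustment. The relation of Agrp to Npy2r was 0.39 in control mice and 0.89 in KO chimeras, a difference that was not tested. For these 7 pairs r was between 0.33 and 0.84 within either scan day. Lepr and Mc4r passed with no peptide. Pomc with Npy1r passed by rho (0.64, adjusted permutation p = 0.0261) and not by r (0.56, 0.0654). Its r was 0.80 in control mice and 0.90 in KO chimeras (adjusted exact permutation p = 0.21 and 0.064).

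**Figure D4:**
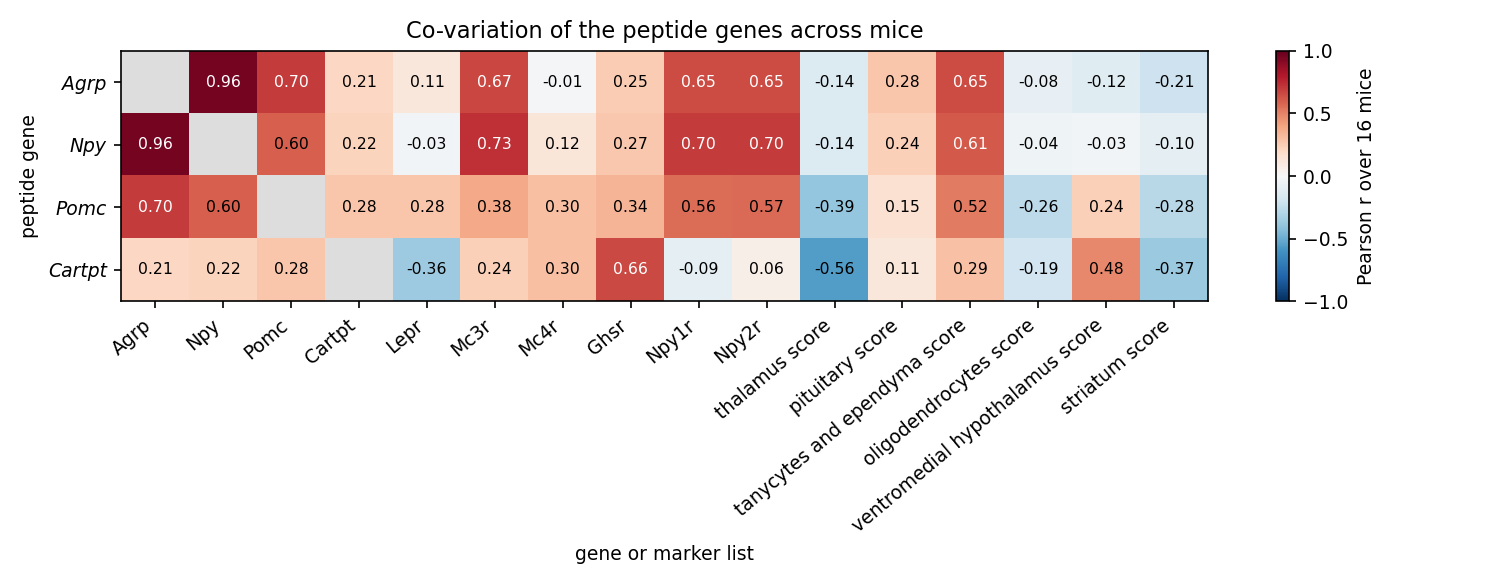
Pearson r over 16 mice between each of the 4 peptide genes (rows) and the other peptides, the receptors and 6 marker scores (columns), on a colour scale from -1 (blue) to 1 (red), with grey for a gene against itself. Among the genes the high values are Agrp with Npy (0.96), both with Pomc, Mc3r, Npy1r and Npy2r, and Cartpt with Ghsr (0.66). Npy2r is read by its brighter probe only, and Cartpt with Ghsr had 0.49 after group means were subtracted. Among the marker scores that of tanycytes and ependyma had 0.65 with Agrp and 0.61 with Npy, neither past the adjusted test.

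None of 24 correlations of a peptide with a marker score passed the adjusted permutation test. The nearest was Agrp with the score of 14 genes of tanycytes and ependyma, the cells that line the ventricle beside the arcuate nucleus (r = 0.65, rho = 0.55, permutation p = 0.00669, adjusted 0.136; 0.50 without the 2 farthest mice; 0.73 and 0.63 within the scan days). That score ran from -0.46 to 0.40 in control mice and from -0.13 to 0.48 in KO chimeras, and was highest in KO chimera replicate 4 and control replicate 2, the mice with the most Agrp. Its part in the Agrp values was not tested. With the thalamus score, Agrp and Npy had r of -0.14 each, Pomc -0.39 and Cartpt -0.56 (rho = -0.61, permutation p = 0.0254, adjusted 0.204). With the pituitary score Pomc had r = 0.15 over the 16 mice, 0.91 within scan day 1 (exact permutation p = 0.0026) and -0.31 within scan day 2, so no one value describes that relation.

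Genes most like each peptide across the 16 mice were ranked by r after each group's mean was subtracted, over 16834 genes with a symbol, as a description only. Next to Npy, the genes nearest to Agrp included Tbx3 (0.90), a T-box transcription factor of arcuate neurons, Ggn (0.90) and Cited1 (0.85). Nearest to Npy after Agrp were Ggn (0.94), Fam117a (0.90), Cited1 (0.88) and Tbx3 (0.88). Tbx3 ran from -1.10 through -0.15 to 1.37 in control mice and from -0.62 through 0.23 to 1.42 in KO chimeras. Its top mouse in each group was the top mouse for Agrp, control replicate 2 and KO chimera replicate 4. Nearest to Pomc were Lrrc28 (0.84), Npy1r (0.83), Esco1 (0.82), Ror2 (0.81) and Slc16a9 (0.81). Nearest to Cartpt were Bcl2a1d (0.87), Gli2 (0.81), Slc11a1 (0.80), Skor1 (0.80) and D630023F18Rik (0.79).

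The 250 bases before the RefSeq start sites of Npy and Pomc (GRCm38.p6) are shown, with motifs that were searched on both strands in capitals. A link of these letters to the variation between mice was not tested. Agrp and Mc4r have no entry in the promoter table used.
Npy: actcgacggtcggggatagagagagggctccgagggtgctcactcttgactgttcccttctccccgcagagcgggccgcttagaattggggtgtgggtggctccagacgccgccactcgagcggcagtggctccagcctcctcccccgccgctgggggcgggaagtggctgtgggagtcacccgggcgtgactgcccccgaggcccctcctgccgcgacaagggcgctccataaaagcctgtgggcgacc
Pomc: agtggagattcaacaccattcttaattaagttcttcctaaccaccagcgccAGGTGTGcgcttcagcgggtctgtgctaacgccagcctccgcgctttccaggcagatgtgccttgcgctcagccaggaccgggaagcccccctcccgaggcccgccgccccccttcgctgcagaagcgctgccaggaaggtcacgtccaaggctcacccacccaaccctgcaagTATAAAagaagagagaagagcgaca
The Npy window is chr6:49822460-49822709 and the Pomc window chr12:3954695-3954944, both on the plus strand. The search was for a TATA box (TATAAA), a T-box core (AGGTGTG), a STAT site (TTCNNNGAA), a FoxO core (TGTTTAC) and a cAMP response element (TGACGTCA). These letters are in 12.4%, 5.1%, 7.02%, 3.17% and 1.55% of the same windows of 32851 promoters. Pomc holds the TATA box, starting at -25, and the T-box core, starting at -199. Npy holds none of the letters searched, Cartpt holds the cAMP response element and Lepr the T-box core. The T-box core was added because Tbx3 was seen among the nearest genes, and a match of letters shows no binding.

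For the rest of the pathway, counts of genes past the test are given by list, to be read beside the 3.83% of all genes that passed. Of 19 genes of leptin, insulin and energy sensing signalling 0 passed in limma (median log2 difference -0.04). In this list 2 were lower with median scaling, and 1 was higher without control replicate 2. The smallest p-values were those of Socs3, the inhibitor that leptin signalling induces (0.36, limma adjusted p = 0.151), and of the AMP kinase subunits Prkaa2 (-0.25, 0.156) and Prkaa1 (-0.16, 0.207). Of 13 measured genes of melanocortin processing, trafficking and modulation 1 was lower and 0 higher (median -0.03). The lower count moved with the settings: 0 within either scan day, 2 without KO chimera replicate 1, control replicate 4 or control replicate 6, with array weights or with the mean of a gene's probes, 3 in the exact permutation test, with slide as a random block, with robust eBayes or for probes above background on all 16 arrays, and 4 with median scaling. That was Mgrn1, a ubiquitin ligase known as mahogunin, which ran from 4.98 through 5.02 to 5.13 in control mice and from 4.67 through 4.74 to 4.77 in KO chimeras. These ranges did not meet, and the log2 difference of Mgrn1 was -0.31 (SE 0.04, limma adjusted p = 0.00398). Within the scan days it was -0.30 and -0.31, not past the test there (limma adjusted p = 0.35 and 0.182). Atrn, the attractin gene, whose loss like that of Mgrn1 darkens the coat of mice, had -0.28 (limma adjusted p = 0.0547), and Cpe, which trims the cut peptides, had -0.28 (limma adjusted p = 0.0587).

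Of the other NPY and ghrelin system genes 4 of 8 were measured and 0 passed in limma; Npy5r had 0.13 and Pyy 0.20. Of 12 measured arcuate transcription factors 1 was lower, Foxp2, which ran from -2.25 through -1.71 to -1.16 in control mice and from -3.19 through -2.37 to -2.09 in KO chimeras. Its log2 difference was -0.71 (SE 0.19, limma adjusted p = 0.0443). It did not pass without KO chimera replicate 1, 2, 4, 5, 6, 7 or 8 or control replicate 1, 2, 3, 5 or 7 (-0.60 to -0.75, adjusted p up to 0.0892), nor with probes above background on all 16 arrays (-0.19, adjusted p = 0.666), the mean of its probes (-0.45, 0.235) or normexp (-0.37, 0.134). The call was also lost with the slide as a block, no filter, the other percentile, the exact permutation test and within scan days (adjusted p = 0.0533 to 0.372). Foxp2 is also expressed in thalamus, and the summed thalamus markers given above moved with it; their part was not tested. Nhlh2, a factor tied to body weight, had -0.30 (limma adjusted p = 0.0831), and Tbx3 had 0.46 (SE 0.33, adjusted p = 0.446).

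Of 17 other genes of arcuate neurons 15 had a log2 difference above 0 (median 0.23), where 49.9% of all genes did, and 0 passed in limma. With median scaling 11 of the 17 were above 0. Other cell type markers moved beside them: 10 of 14 genes of tanycytes and ependyma were above 0 (median 0.23, 1 called lower), 11 of 12 pan-neuronal genes below 0 (median -0.13, 1 called lower) and 11 of 12 microglia genes below 0 (median -0.22, 3 called lower). Over all genes tested 683 of 24363 were called lower. The part of these markers in the arcuate values was not tested. Among the arcuate neuron genes with the smallest p-values were Gal, the galanin precursor (0.32, limma adjusted p = 0.127) and Prlr, the prolactin receptor (0.36, limma adjusted p = 0.198). The median of the arcuate neuron genes stayed between 0.11 and 0.29 under the other settings tried. Of 25 feeding peptides and receptors of other hypothalamic nuclei 1 was lower (3 with median scaling), Htr2c, the serotonin receptor through which serotonin acts on POMC neurons. Its signal ran from 2.60 through 2.79 to 3.05 in control mice and from 1.94 through 2.36 to 2.49 in KO chimeras, ranges that did not meet. The log2 difference of Htr2c was -0.47 (SE 0.08, limma adjusted p = 0.0100), and -0.27 (adjusted p = 0.113) as the mean of its probes. Within scan days 1 and 2 the Htr2c difference was -0.57 and -0.36, not past the test there (limma adjusted p = 0.318 and 0.243).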

How the data were processed

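The authors deposited each array's spot intensity (linear, background subtracted and detrended, per the file headers) with flags for spots above background, saturated or outlying, made by Agilent Feature Extraction, whose version is 10.7 in the submitters' processing notes and 10.1.1.1 in the headers. A table of log2 values that the authors deposited served as an alternative. It had r of at least 0.99962 with the scanner's log2 signal, a slope of 0.9785 to 1.025, column medians of 5.206 to 5.249 and a floor of 2.2; it is not gene-centred, and how its arrays were aligned is unknown.

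From the intensity, log2 minus the array's 75th percentile over non-control spots was taken, outlier spots were left out and spots of a probe averaged. Of 55681 probes 35144 were well above background on at least 8 of 16 arrays; the brightest per gene was tested with lmFit and eBayes (limma 3.58.1, R 4.3.3), Benjamini-Hochberg adjusted over 24363 genes, threshold 0.05. No member probe was saturated. Intervals are limma's, unadjusted. Correlations used Python 3.11.15 with 100000 resamples, or all 40320 pairings within 8 mice, adjusted over 6, 24 and 24 pairs. The arrays lay on 6 slides, 5 with both groups, and were scanned on 2 days with 4 mice per group each. KO chimera replicate 4 was alone on its slide, so with the slide as a fixed block it did not enter the group difference. Genes named are the 10 members, list genes past the threshold or else up to 3 with the smallest p, and the 5 genes most like each peptide, some of which are not reported here; Gh, Prl, Npy5r, Pyy and further list genes were named after their values were seen. The members and lists were chosen with earlier results of these data known. In simulated data of this comparison (24363 genes) the test found 71.6% of 67 genes with a log2 shift of 0.5, 86.6% of 67 with a shift of 1 and 98.5% of 66 with a shift of 2. It also called 12 of 24163 genes left unshifted. Each simulated gene kept its own SD within groups (median 0.20), so these rates do not describe Agrp (1.56), Npy (0.90) or Pomc (0.51). Alternatives were other scalings, background corrections, filters, probe rules, blocks, weights, a threshold of 0.1, permutation and each mouse left out.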

Additional observations from a re-analysis of the deposited data

Results flagged for a closer look

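In 28 groups of 8 mice (14 probes, each in both groups), Dixon's test for a single distant sample at its 95% critical value (0.526) marked 1. Chance marks about 1 in 20 groups. It was Mc3r in control replicate 2, at 1.73 against 1.05 for the next control mouse, a gap of 0.78 of the group's range.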

How the results depend on the processing

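The count of members called was 0 in 29 of 36 alternatives and 1 (Ghsr) in 7. Ghsr passed with the percentile over probes above background on all arrays (0.368, adjusted p = 0.0432), probes above background on all 16 arrays (0.306, 0.0395), the replicate block (0.306, 0.0404), the slide as a random block (0.303, 0.0482), array weights (0.334, 0.0291), a threshold of 0.1 (0.306), and without control replicate 8 (0.335, range over single mice left out 0.263 to 0.335, counts 0 to 1). The labels used do not say that replicate numbers pair the mice. Deviations of same-numbered mice correlated at -0.0744 to 0.243. Mice of different numbers were not compared in this way, so these values do not settle whether the numbers pair the mice. The replicate block called 812 genes and changed no other member's call. Pomc, Cartpt and Mc4r kept their sign in all 36. Signs turned for Agrp (main difference 0.315), Npy, Lepr, Mc3r, Npy1r and Npy2r, at values of -0.368 to 0.197. None of these values passed the threshold. Agrp: -0.0164 with slide as a fixed block, -0.117 in scan day 1, -0.0936 to 0.732 with single mice left out. Npy: -0.111 under median scaling, -0.219 and -0.00648 with slide as a fixed or random block, -0.368 in day 1, -0.225 to 0.266 with mice left out. Lepr: -0.0509 under median scaling, -0.00231 in day 1. Mc3r: 0.00945 with quantile scaling, 0.0359 with the other percentile, 0.00904 in the deposited table, 0.0489 in day 2, 0.0144 with weights, -0.0779 to 0.0673 with mice left out. Npy1r: 0.0762 in day 2. Npy2r: 0.0534 with the other percentile, 0.195 as the mean of its probes, 0.197 in day 2, 0.0159 with weights, -0.0605 to 0.0512 with mice left out. The causes were not tested.

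Agrp and Npy stayed past the threshold in all 29 alternatives (r 0.94 to 0.99). Agrp and Pomc did not pass within control mice (0.67), scan day 1 (0.73), day 2 (0.71) or without the 2 farthest mice (0.60), fits with fewer mice. Nor did Npy and Pomc within control mice (0.63), KO chimeras (0.76), day 1 (0.55), day 2 (0.68), without the 2 farthest (0.60), or without KO chimera replicate 4 (0.52) or control replicate 4 (0.54); it passed with each of the other 14 mice left out (range over all 16 0.52 to 0.66). Cartpt turned sign with Agrp (-0.04 with slide means subtracted, -0.02 without the 2 farthest, 0.00 to 0.37 with mice left out), Npy (-0.13, -0.01) and Pomc (-0.27 in KO chimeras).

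Over all genes the count called was 523 with quantile scaling, 4168 with median scaling, 271 with normexp, 535 in the deposited table, 598 with no filter, 488 with slide as a fixed block, 0 and 7 within the scan days (2837 and 3434 at an unadjusted p under 0.05), 2039 at a threshold of 0.1 and 364 to 1030 with single mice left out. Dim probes (Lepr variants 1 and 3) had too little signal over background for a test.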

Other observations

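Among the 11072 genes with a mean above the array's 75th percentile, those with a wider spread within groups than Agrp (SD 1.56) were Ttr (SD 2.58), a probe with no gene symbol and Plekha1 (1.94), and Tnnt1 (1.47), Gm1987 (1.26) and Tcf7l2 (1.13) followed; they are named here after their values were seen. Ttr, the transthyretin gene of the choroid plexus, ran from -2.03 to 5.69 in control mice and from -1.66 to 5.35 in KO chimeras. Its top mice were control replicate 3 and KO chimera replicate 1, whose Agrp values were 0.08 and 0.13. Tnnt1 and Tcf7l2 are thalamus markers of the lists used.

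Scores of some gene lists that hold none of the 10 members were highest in mice with much Agrp, and not only those of arcuate neuron genes. The score of the other arcuate neuron genes was 0.33 in KO chimera replicate 2, 0.31 in KO chimera replicate 4 and 0.28 in control replicate 2, and no more than 0.26 elsewhere. The score of the arcuate transcription factors was 0.35 in control replicate 2, 0.25 in KO chimera replicate 4 and 0.18 in KO chimera replicate 2, and no more than 0.17 elsewhere. The score of tanycytes and ependyma was 0.40 in control replicate 2, 0.48 in KO chimera replicate 4 and 0.37 in KO chimera replicate 2. Elsewhere the tanycyte and ependyma score was no more than 0.10. These mice had Agrp values of 3.68, 3.93 and 1.98, the highest of the 16. The arcuate lists include Cited1 and Tbx3, which are among the genes nearest to Agrp. Rax is in both the list of arcuate transcription factors and that of tanycytes and ependyma, so those scores share a gene. The relation of the arcuate scores to Agrp was not tested.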
